A study of Mus musculus with 3 samples.

Results

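The spectrins and the Band 4.1 and FERM-domain proteins link the plasma membrane to the actin cytoskeleton without belonging to the ezrin, radixin and moesin family. The 10 genes described here are the spectrins Sptan1 and Sptbn1, the Band 4.1 genes Epb41, Epb41l1, Epb41l2, Epb41l3 and Epb41l5, and the FERM-domain genes Frmd4a, Frmd6 and Farp1. They were chosen by symbol, and all 10 were found among the 41743 gene symbols of the count tables. The filter on low counts kept 9 of them among 12478 tested genes, and Epb41l3 did not pass it.

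The measurement was RIP-seq, sequencing of the RNA that comes down with an antibody. All 3 libraries came from 1 genotype of K7M2, a mouse osteosarcoma line of osteoblast type that had lost its own ezrin gene through CRISPR/Cas9 and carried a stably transfected T567A ezrin cDNA, and no treatment was given. Anti-ezrin antibody gave 2 libraries, called ezrin replicates 1 and 2 here, and 1 library came from normal mouse IgG, so each comparison sets RNA recovered with ezrin against RNA recovered with a nonspecific antibody. The study asked which RNAs the closed form of ezrin, which T567A stands for, is bound to. The labels do not tie the ezrin libraries to separate cultures, so the p-values measure only the spread between these samples, which may be technical. The spread of the IgG side was not measured, since it has 1 library. No library of RNA before precipitation was analysed here, so the folds are relative to IgG and not to the level in the cells.

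Spectrin is a long, flexible protein built from repeats. An alpha and a beta chain pair and then join head to head into tetramers that cross-link actin filaments into a lattice under the membrane. Proteins of the Band 4.1 type strengthen the contact of spectrin with actin and tie it to membrane proteins through the FERM domain, the same kind of membrane-binding module that ezrin carries at its amino terminus. FERM proteins without a spectrin-binding part act as scaffolds for cell polarity, growth control and small GTPase signalling.

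Total counts were 19676595 and 16196329 in ezrin replicates 1 and 2 and 10124580 in IgG, and the 10 genes together held 28929, 24427 and 11838 of them. Protein-coding genes made up 97.5% and 98.1% of counts in the ezrin libraries and 74.7% in IgG, and the 10 genes made up 0.151%, 0.154% and 0.157% of protein-coding counts in that order. Of all counts they made up 0.147%, 0.151% and 0.117%, and their summed level was 1442, 1456 and 1237 CPM, counts scaled to the size of the library. Of 8 osteoblast and osteosarcoma markers, Col1a1, Col1a2, Spp1, Runx2 and Alpl were measured, whereas Sp7, Ibsp and Bglap had at most 1 count in any library. Summed epithelial markers reached 0.349, 0.894 and 0.314 CPM and summed erythroid markers 0.0997, 0.179 and 0.732 CPM in ezrin replicates 1 and 2 and IgG, with Epcam, Hbb-bs and Slc4a1 among those at 0. Summed neuronal markers lay at 9.92, 11.0 and 11.5 CPM with Rbfox3 at 0, summed endothelial markers at 1.25, 1.31 and 2.09 CPM, and the macrophage list, with Adgre1 and Ptprc at 0, at 991, 899 and 1256 CPM, nearly all of it Csf1r.

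Among the 9 measured genes, Sptan1 was the 1 gene that rose in the ezrin libraries, 2.58-fold over IgG, and none fell by the test used (edgeR's quasi-likelihood test on counts, with Benjamini-Hochberg adjustment over all tested genes at 0.05). Across all tested genes 19.0% were called higher and 17.4% lower, so 1 of 9 higher and 0 of 9 lower is no excess of calls. The other 8 genes were not called, against 63.6% of all tested genes. At an unadjusted p under 0.05 the same test gave 2 higher (Sptan1 and Frmd6) and 1 lower (Epb41l1), and DESeq2 after adjustment gave 1 higher and 0 lower. The median log2 fold of the 9 genes was −0.025 and that of all tested genes −0.020. In CPM scaled by TMM, a method that equalises the libraries on the bulk of genes, both ezrin libraries lay above IgG for 3 genes, both lay below for 5 and they split around it for 1. The corresponding shares of all tested genes were 42.6% above and 44.3% below. Over all genes, the split of 2377 higher and 2171 lower calls became 2872 and 1761 with library size as the only scaling, 1824 and 1012 with DESeq2, and 3734 and 964 with RPKM and a pseudocount of 1.

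**Figure D1:**
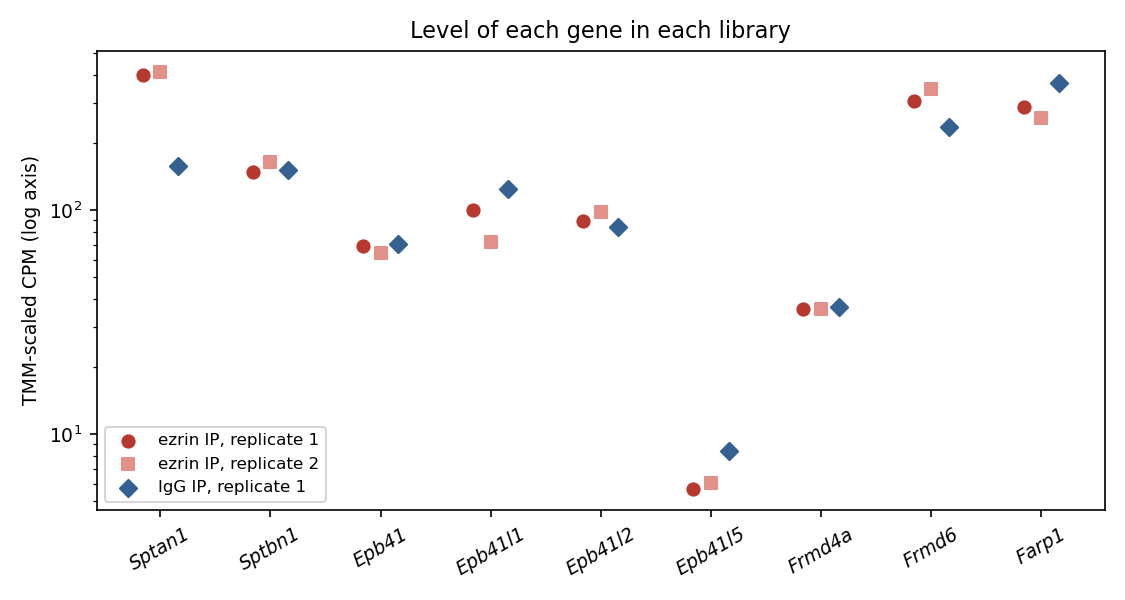
TMM-scaled CPM (log axis) of the 9 measured genes, 1 point per library: ezrin IP replicates 1 and 2 (circle and square) and the single IgG IP library (diamond). Sptan1 stood at 399 and 414 CPM against 157 CPM, whereas Sptbn1 and Frmd4a had nearly the same level in all 3 libraries.

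Sptan1 encodes the alpha chain of spectrin in cells other than red cells (chromosome 2, 29965560 to 30031451, GRCm38). It had 8010 and 6952 counts in ezrin replicates 1 and 2 and 1506 in IgG, which is 399, 414 and 157 CPM. Both ezrin libraries were far above IgG and close to each other. The mean was 407 ± 10.8 CPM (SD, n = 2) against 157 CPM, and the log2 fold was 1.37 (SE 0.24, 95% interval 0.90 to 1.84, edgeR adjusted p = 3.1e-07). This fold lay at percentile 94.7 of all tested genes. It was positive under all 12 alternatives tried, from 0.998 after cyclic loess to 1.75 with RPKM and a pseudocount of 0.1, and passed in all 9 of them that give a test (adjusted p from 7.2e-09 to 0.0010). How the IgG value would vary between precipitations was not measured.

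Sptbn1 encodes the beta chain that pairs with it (chromosome 11, 30099395 to 30268384). It had 2965, 2735 and 1450 counts, which is 148, 163 and 152 CPM in ezrin replicates 1 and 2 and IgG. The IgG value lay between the ezrin values. The log2 fold was 0.04 (SE 0.24, 95% interval −0.43 to 0.50, edgeR adjusted p = 0.92), and no tested alternative called it. The interval leaves room for a difference of up to about 0.50 on the log2 scale and does not show that the level was equal.

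The 2 chains thus stood in another proportion in the ezrin libraries than in IgG. This proportion is formed within a library and so does not depend on how libraries are scaled to each other. Sptan1 gave 73.0% of the summed Sptan1 and Sptbn1 counts in ezrin replicate 1 (exact Clopper-Pearson 95% interval 72.1 to 73.8), 71.8% in ezrin replicate 2 (70.9 to 72.7) and 50.9% in IgG (49.1 to 52.8). The intervals cover counting error only and not the variation between precipitations, which was not measured for IgG. Per length, in the deposited RPKM, Sptan1 was 3.52 and 3.31 times Sptbn1 in the ezrin libraries and 1.35 times in IgG. The log2 fold of Sptan1 exceeded that of Sptbn1 by 1.33 (SE 0.34, 95% interval 0.67 to 1.996, errors taken as independent between the genes). Under the 12 alternatives this difference ranged from 1.20 after cyclic loess to 1.38 without ezrin replicate 2. Alternatives that change only a scaling factor could hardly move it, since such a factor cancels between the 2 genes. Sptbn4 and Sptbn5, further beta spectrin genes, had at most 3 counts in any library and did not pass the filter.

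**Figure D2:**
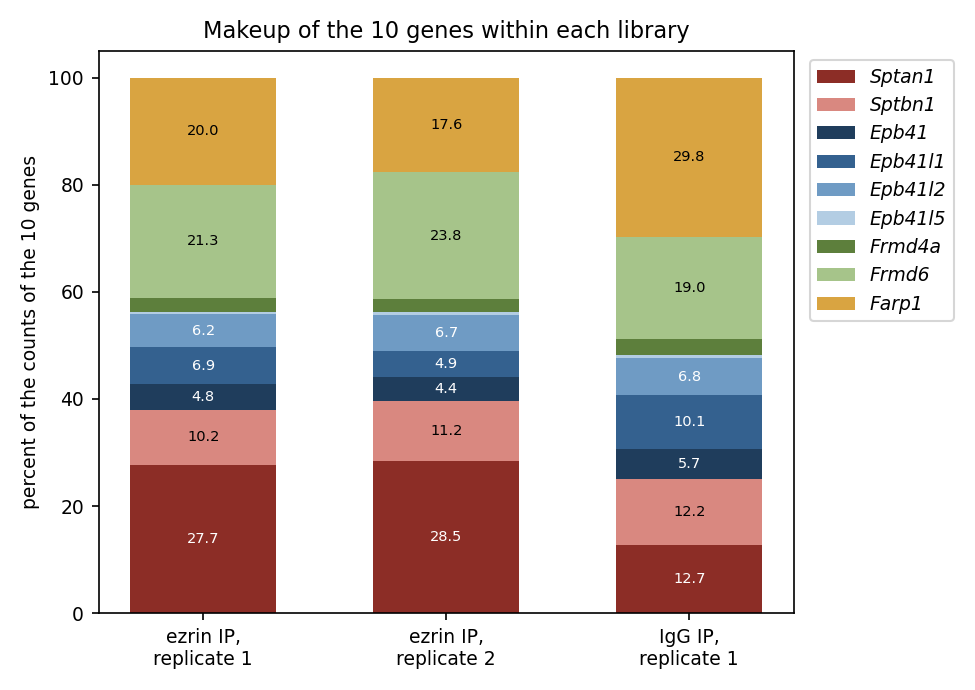
Stacked bars give the percent of the summed counts of the 10 genes held by each gene within each of the 3 libraries (values printed where above 4%; Epb41l3, with 1 count in all, is too small to see). Sptan1 held 27.7% and 28.5% in the ezrin libraries against 12.7% in IgG, and Farp1 19.97% and 17.6% against 29.8%.

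None of the 4 measured Band 4.1 genes was called. Epb41, the founding member, whose protein locks spectrin to actin in red cells (chromosome 4, 131923413 to 132075346), had 1386, 1078 and 676 counts, or 69.1, 64.3 and 70.6 CPM. All 3 values lay close together. Its log2 fold was −0.08 (SE 0.24, 95% interval −0.56 to 0.39, edgeR adjusted p = 0.82).

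Epb41l2, a widely expressed member (chromosome 10, 25359782 to 25523519), had 1785, 1643 and 807 counts, or 89.0, 98.0 and 84.3 CPM. Both ezrin values were slightly above IgG, by less than the interval of the difference (log2 fold 0.15, 95% interval −0.33 to 0.62, edgeR adjusted p = 0.67). Epb41l1, best known from neurons (chromosome 2, 156417595 to 156543214), had 2010, 1204 and 1190 counts, or 100.2, 71.8 and 124 CPM. The ezrin libraries were both below IgG, but they differed from each other more than ezrin replicate 1 differed from IgG. The log2 fold was −0.53 (SE 0.24, 95% interval −0.99 to −0.07), which missed the threshold after adjustment (edgeR adjusted p = 0.062). It passed on the lower side after cyclic loess (limma adjusted p = 0.011) and with the filter set at a mean of 10 CPM (edgeR adjusted p = 0.013), and its adjusted p reached 0.68 over the tested alternatives. The fitted log2 fold was −0.79 without ezrin replicate 1 and −0.31 without ezrin replicate 2.

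Within the libraries, Epb41l1 gave 53.0% of the summed Epb41l1 and Epb41l2 counts in ezrin replicate 1 (51.4 to 54.6), 42.3% in ezrin replicate 2 (40.5 to 44.1) and 59.6% in IgG (57.4 to 61.8). The ezrin replicates differed from each other beyond counting error here, unlike the nearly equal shares of the spectrin chains. The difference of the log2 folds was −0.68 (SE 0.34, 95% interval −1.34 to −0.02), and it ranged from −1.01 without ezrin replicate 1 to −0.39 without ezrin replicate 2. Like the spectrin pair, this pair was chosen with the values in view, and neither interval is adjusted for the number of pairs compared.

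Epb41l5, which takes part in epithelial polarity and in the epithelial to mesenchymal transition (chromosome 1, 119545032 to 119649096), was rare, with 114, 101 and 80 counts, or 5.68, 6.02 and 8.36 CPM. Both ezrin values lay below IgG, and the log2 fold of −0.52 had the widest interval of the 9 genes (−1.20 to 0.17, edgeR adjusted p = 0.25). Epb41l3, described as a growth suppressor that many tumours lose (chromosome 17, 69075647 to 69289991), had 0, 1 and 0 counts. A count of 0 allows up to 3 counts, or 0.149 CPM in ezrin replicate 1 and 0.313 CPM in IgG by counting error alone, so its message was not detectable at this depth beyond a single count. In these precipitates, fewer cells with a message, less of it per cell and less recovery of it cannot be told apart.

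Of the FERM scaffolds, Frmd6, which acts upstream of the Hippo growth-control kinases (chromosome 12, 70825456 to 70902234), had 6153, 5811 and 2255 counts. These were 307, 346 and 236 CPM in ezrin replicates 1 and 2 and IgG. Both ezrin libraries lay above IgG, with a mean of 327 ± 28.2 CPM (SD, n = 2). The log2 fold of 0.47 (SE 0.23, 95% interval 0.02 to 0.92) did not pass after adjustment (edgeR adjusted p = 0.097). It passed with library size as the only scaling (edgeR adjusted p = 0.033) and with RPKM (limma adjusted p = 0.012 and 0.016 for the 2 pseudocounts). Those settings also moved the median of all genes, from −0.020 to 0.10 and to 0.22 and 0.34. After cyclic loess the fold was 0.10 (limma adjusted p = 0.76), and 0.10 to 0.85 was its range over the 12 alternatives.

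Frmd4a, a scaffold that joins polarity proteins to Arf-activating cytohesins (chromosome 2, 4017650 to 4614043), had 728, 604 and 352 counts, or 36.3, 36.0 and 36.8 CPM. These were the most even values of the set, with a log2 fold of −0.025 (95% interval −0.52 to 0.47, edgeR adjusted p = 0.95). Per length Frmd6 stood 31.0 and 35.3 times above Frmd4a in the ezrin libraries and 23.5 times in IgG, and the difference of their log2 folds, 0.50, had an interval that includes 0 (−0.18 to 1.17).

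Farp1 joins a FERM domain to a guanine nucleotide exchange factor (chromosome 14, 121035168 to 121283744) and was the most abundant of the 10 genes in IgG. It had 5778, 4298 and 3522 counts, or 288, 256 and 368 CPM, with both ezrin libraries below IgG. The log2 fold of −0.44 (SE 0.22, 95% interval −0.87 to 0.00080) did not pass (edgeR adjusted p = 0.11). It passed on the lower side after cyclic loess (−0.81, limma adjusted p = 0.0017) and with that filter at 10 CPM (−0.55, edgeR adjusted p = 0.030), while with RPKM and a pseudocount of 1 it was −0.048 (limma adjusted p = 0.87). A long noncoding gene, B930095G15Rik, lies within the span of Farp1 with 106, 117 and 168 counts. No source used here states whether the counting used strand, so reads of overlapping genes cannot be told apart. The other overlap with a count was Gm8098 within Sptbn1, with 18, 12 and 16 counts.

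Farp1 held less of the summed Farp1 and Frmd6 counts in the ezrin libraries than in IgG. It gave 48.4% in ezrin replicate 1 (47.5 to 49.3), 42.5% in ezrin replicate 2 (41.6 to 43.5) and 61.0% in IgG (59.7 to 62.2). The ezrin replicates differed from each other beyond counting error for this pair too. The difference of their log2 folds was −0.91 (SE 0.32, 95% interval −1.54 to −0.28). Under the 12 alternatives it ranged from −1.08 without ezrin replicate 1 to −0.73 without ezrin replicate 2. A change of scaling factor moves both folds alike and cancels here, so the alternatives to scaling factors do not test this difference. This pair was 1 of 7 for which such a difference was computed, chosen with the values in view, and the intervals are not adjusted for that number.

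**Figure D3:**
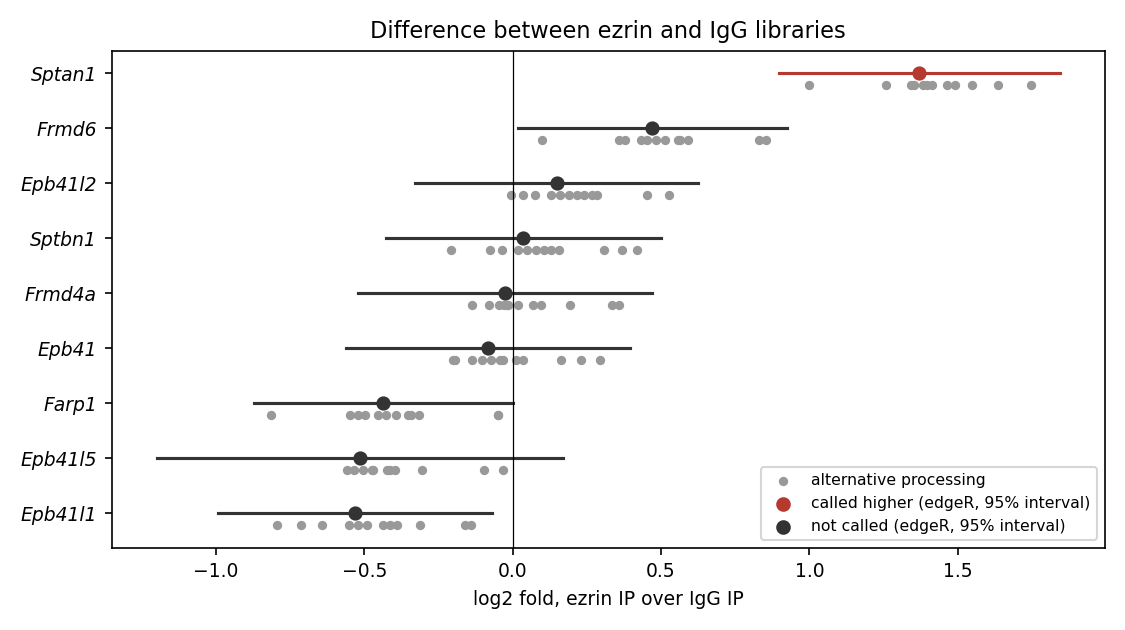
Log2 fold of ezrin IP over IgG IP for each of the 9 measured genes with edgeR's approximate 95% interval (large points and bars) and the values under the alternative processing (small grey points). Sptan1 (1.37) stands apart from the other 8 genes, which lie between −0.53 and 0.47.

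On the deposited RPKM scale, which divides by gene length and so allows genes to be set against each other, Farp1 and Frmd6 had the highest levels in the ezrin libraries. Farp1 stood at 43.7 and 39.9 RPKM and Frmd6 at 40.2 and 46.7 RPKM, in opposite order in the 2 replicates. Sptan1 followed at 24.9 and 26.6 RPKM. Sptbn1 (7.09 and 8.03 RPKM), Epb41l1 (6.98 and 5.14 RPKM) and Epb41l2 (6.30 and 7.12 RPKM) overlapped, and Epb41 (3.54 and 3.38 RPKM), Frmd4a (1.30 and 1.32 RPKM) and Epb41l5 (0.323 and 0.351 RPKM) each lay clearly below the one before. In IgG the order was Farp1 (43.2 RPKM), Frmd6 (23.9 RPKM), Sptan1 (7.61 RPKM), Epb41l1 (6.71 RPKM), Sptbn1 (5.62 RPKM), Epb41l2 (4.62 RPKM), Epb41 (2.80 RPKM), Frmd4a (1.02 RPKM) and Epb41l5 (0.368 RPKM). The step from Sptan1 to the next gene was wide in the ezrin libraries and narrow in IgG. Folds between libraries were higher on this scale than in scaled counts, with a median over all genes of 0.22 at a pseudocount of 1 against −0.020. RPKM also divides by a number of reads, which was inferred here from short RNAs of known length. This number exceeded the total counts in each library, by the largest factor in IgG. How much of the higher folds comes from this divisor was not tested.

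**Figure D4:**
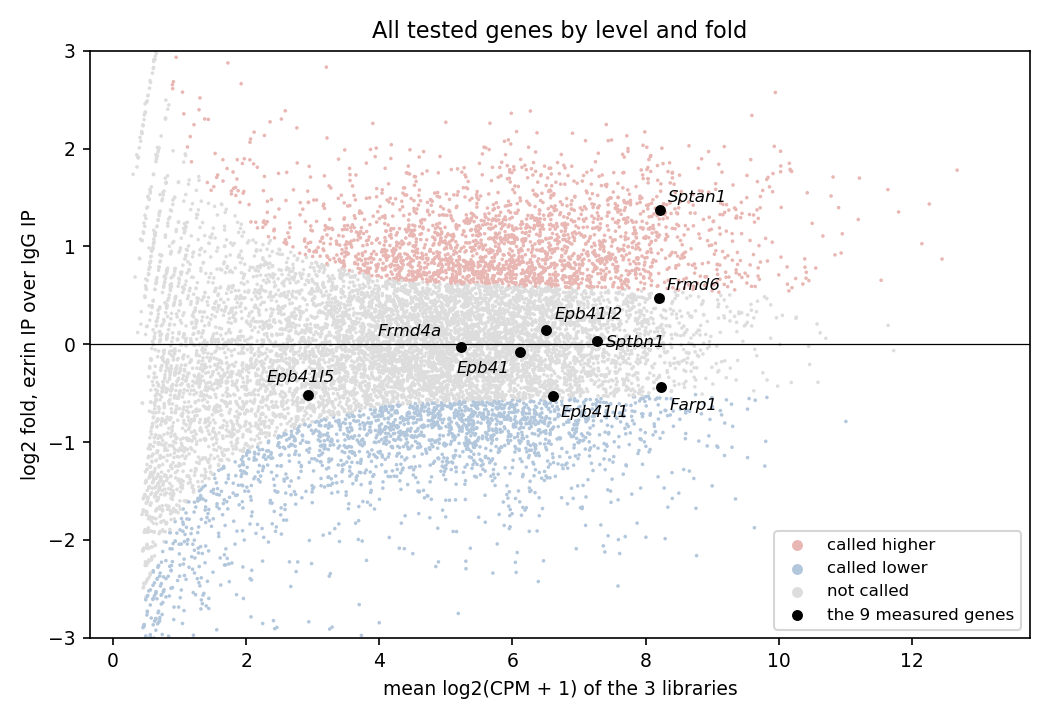
All 12478 tested genes by mean log2(CPM + 1) of the 3 libraries and log2 fold of ezrin IP over IgG IP, coloured by edgeR's call, with the 9 measured genes in black (326 genes beyond a log2 fold of 3 in either direction lie outside the axis). Sptan1, Frmd6 and Farp1 have nearly the same mean level and folds of 1.37, 0.47 and −0.44.

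By the gene length that the deposited RPKM used, the genes of this set are long. That length need not be the length of any single transcript. Count over RPKM implied lengths of 5524 nt (Farp1) to 23468 nt (Frmd4a), with 13431 nt for Sptan1 and 17492 nt for Sptbn1, against a median of 4353 nt over all tested genes. Among the 1209 tested genes of at least 10000 nt by this measure, 12.4% were called higher and 25.4% lower. Sptan1 belongs to this group and was called higher. With a trend on this length subtracted, the log2 fold of Sptan1 was 1.55 and that of Sptbn1 was 0.31. Of the 2253 tested genes whose mean over the 3 libraries was 100 CPM or more, 38.5% were called higher and 14.8% lower. That mean includes the ezrin libraries, so genes high in them pass the cut more easily. These shares therefore do not show an effect of level. Sptan1, Farp1, Frmd6 and Sptbn1 lay in that range, and of these only Sptan1 was called. Whether length or level bears on the calls was not tested.

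Of 66 tested genes among the 92 found from 4 related lists, 13 were higher and 8 lower, against 19.0% and 17.4% of all tested genes, and the median log2 fold was 0.02. DESeq2 called 13 higher and 3 lower, and limma on RPKM with a pseudocount of 1 called 17 and 1. The medians of the 4 lists depended on the setting: after cyclic loess they were −0.12, −0.11, −0.16 and −0.17 in the order described here, and with RPKM and a pseudocount of 1, which raised the median of all genes to 0.22, they were 0.38, 0.15, 0.20 and 0.22. Of 28 tested genes among 40 other FERM-domain genes, 5 were higher and 4 lower, with a median of 0.09. DESeq2 called 5 higher and 1 lower in this list, and limma on RPKM with a pseudocount of 1 called 7 and 1. Talin 1 (Tln1), which couples integrins to actin, was higher with 19270, 13548 and 3455 counts (log2 fold 1.29, edgeR adjusted p = 3.3e-07). Fermt2, a kindlin that activates integrins with talin, was higher with 1700, 1900 and 390 counts (1.28, edgeR adjusted p = 1.1e-05). The phosphatase gene Ptpn4 was lower with 305, 345 and 501 counts (−1.55, edgeR adjusted p = 8.4e-09), and Epb41l4a was called lower on only 2, 1 and 16 counts (edgeR adjusted p = 0.00066). Myo10, the unconventional myosin that was most abundant in this list, was at 1064 CPM (mean of the ezrin libraries) against 882 CPM in IgG, which the test did not call (edgeR adjusted p = 0.33). Farp2, the closest relative of Farp1, was lower with 269, 234 and 251 counts (log2 fold −0.94, edgeR adjusted p = 0.0017), named here after its value was seen.

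Of 13 tested genes among 22 other genes of the spectrin membrane skeleton, 3 were higher and 2 lower, with a median of 0.02. Mpp1, a scaffold that binds protein 4.1 and glycophorin C in red cells, was higher with 1743, 1081 and 306 counts (log2 fold 1.24, edgeR adjusted p = 2.9e-05). The cytoplasmic actin gene Actg1 was higher with 48899, 35460 and 11555 counts (0.91, edgeR adjusted p = 0.00016), and Actb, the most abundant gene of the list, was not called (0.19, edgeR adjusted p = 0.47). The red cell beta spectrin gene Sptb was rare and lower, with 18, 6 and 25 counts (−2.02, edgeR adjusted p = 0.012), and glycophorin C (Gypc) was lower with 688, 481 and 482 counts (−0.68, edgeR adjusted p = 0.020). DESeq2 called 3 higher and 0 lower in this list, with 1 lower at an unadjusted p under 0.05.

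Of 10 tested genes among 12 others with spectrin repeats, 3 were higher and none was lower by edgeR, with a median of −0.12. At an unadjusted p under 0.05 edgeR gave 1 lower, DESeq2 gave 0 lower after adjustment and limma after cyclic loess gave 3. The alpha-actinins, short relatives of spectrin that bundle actin, led it: Actn1 had 16445, 12949 and 2828 counts (log2 fold 1.43, edgeR adjusted p = 1.9e-08) and Actn4 15876, 14455 and 2941 counts (1.43, edgeR adjusted p = 1.8e-08). Both had folds close to that of Sptan1.

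Of 15 tested genes among the 18 binding partners found, 2 were higher and 2 lower, with a median of −0.12. Of all tested genes 19.0% were higher and 17.4% lower. DESeq2 called 2 higher and 2 lower in this list, and limma after cyclic loess called 4 and 3. With limma on RPKM and a pseudocount of 1 the calls were 4 and 0, so the lower calls named below did not hold there. Cyth2, an Arf-activating cytohesin, was higher with 2883, 2401 and 616 counts (log2 fold 1.16, edgeR adjusted p = 5.1e-05), and the Hippo kinase gene Stk3 was higher with 909, 983 and 254 counts (0.97, edgeR adjusted p = 0.0016). Lats1, the kinase below Stk3, was lower with 1072, 983 and 1040 counts (−0.96, edgeR adjusted p = 0.00034), as was Sav1, the scaffold of the same pathway, with 1055, 1015 and 1029 counts (−0.93, edgeR adjusted p = 0.00054). In the ezrin family itself, Ezr (1.18) and Msn (1.46) were called higher with folds near that of Sptan1. Nf2 was called lower (−0.92), and Rdx was not called (−0.44, edgeR adjusted p = 0.13). Lower calls in this family became 2 after cyclic loess and with the filter at 10 CPM, and 0 with RPKM at a pseudocount of 1. Higher calls stayed at 2 in those settings. The cells lost their own ezrin gene and carry an ezrin cDNA. Ezr counts may thus hold reads of that cDNA or of the edited gene, which cannot be told apart here.

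**Figure D5:**
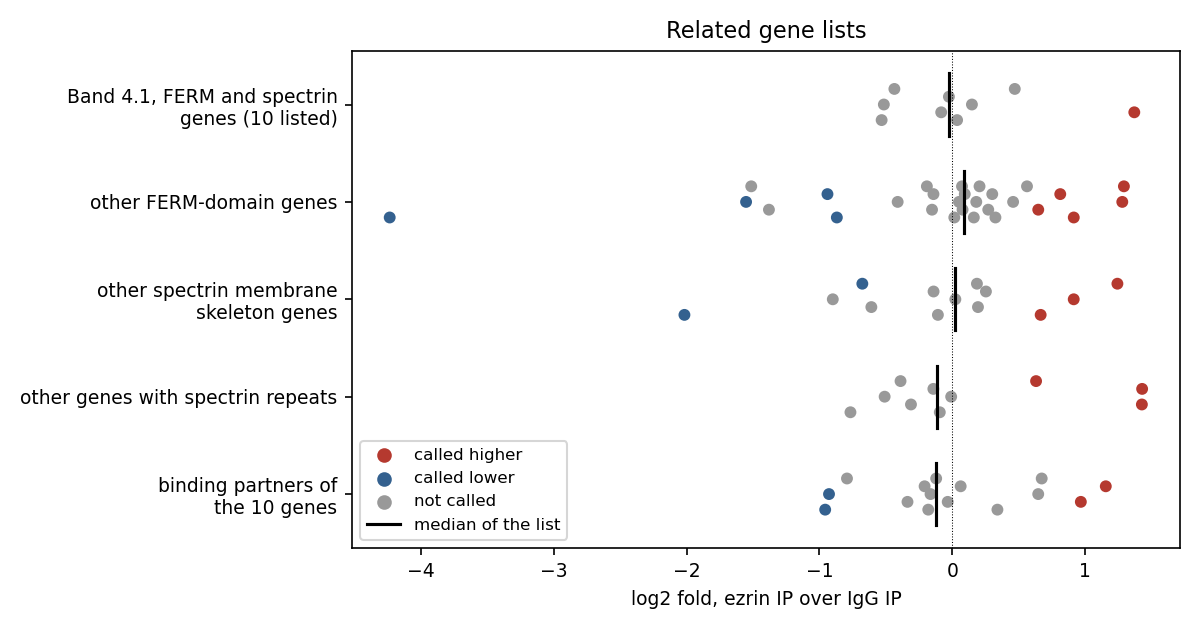
Log2 fold of ezrin IP over IgG IP for each tested gene of the set (top row) and of 4 related lists, coloured by edgeR's call, with a bar at each list's median; height within a row has no meaning. Medians lie between −0.12 and 0.09, and each list holds a few called genes on 1 or both sides.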

How the data were processed

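The authors deposited, for each of the 3 libraries, a table of raw counts per gene symbol and a table of RPKM values, that is counts relative to the length of the gene and the number of reads. Per the labels' protocols, ribosomal RNA was depleted and paired reads of 150 bases were sequenced, while the molecule field reads polyA RNA, and it was not settled which applies. Per the submitters' processing notes the build was GRCm38. The aligner, counter, annotation and use of strand were not given in the sources used here. Coordinates and biotypes come from a RefSeq table of GRCm38.p6, to which 30407 symbols matched.

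EdgeR 4.0.16 in R 4.3.3 was run on the deposited counts of all genes (filterByExpr, TMM, quasi-likelihood test, Benjamini-Hochberg adjustment at 0.05). Only the 2 ezrin libraries leave a residual degree of freedom (1), and the prior degrees of freedom were infinite, so the spread pooled over genes stood in for each gene's own and the IgG library was assumed to vary alike. SE is the fold over the square root of F, an approximation. Gene lengths are count over RPKM, set on short RNAs of known length (40 of 49, 35 of 39 and 38 of 46 within 0.1% of the median). The scripts were checked on simulated data.

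Alternatives to scaling, filter, tool (DESeq2 1.42.0, limma 3.58.1), unit and gene length were run, and each ezrin library was left out. The 10 genes and the related lists were chosen with earlier results of these data known. The text names all 10 genes and, per related list, the 2 highest and 2 lowest called genes and the most abundant gene, plus the ezrin family; some items that this rule takes are not reported here. Differences between pairs of genes and the groups by length and level were added after the values were seen.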

Additional observations from a re-analysis of the deposited data

How the results depend on the processing

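Sptan1 kept its direction and passed in every alternative with a test. Of the 107 values of single genes under alternatives, 81 kept their direction and their side of the threshold or moved less than the spread between replicates, 13 turned in sign without a call (Epb41, Epb41l2, Frmd4a and Sptbn1), 7 newly passed (Epb41l1, Farp1 and Frmd6, given in the report) and 6 without a test moved, those with the length trend subtracted. The count of higher genes among the 9 became 2 with library size only and with RPKM at either pseudocount (Frmd6 added), and the count of lower ones became 2 after cyclic loess and with the filter at 10 CPM (Epb41l1 and Farp1 added). Lower calls among related genes went from 8 to 3 with DESeq2 and to 1 and 2 with RPKM at pseudocounts 1 and 0.1. Over all genes, higher calls became 3734 and 3745 with RPKM at pseudocounts 1 and 0.1, and lower calls 964 and 843, and 1012 with DESeq2. The cause was not tested. The median of the 9 genes, −0.025, was −0.014 with DESeq2's size factors in edgeR, 0.095 with library size only, −0.044 scaled on protein-coding genes, −0.20 after cyclic loess, 0.068 without a filter, −0.11 at 10 CPM (8 genes), 0.017 with DESeq2, 0.23 and 0.33 with RPKM at pseudocounts 1 and 0.1, 0.29 with the length trend subtracted, and −0.033 to −0.031 without 1 ezrin replicate.

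Leaving out an ezrin library leaves no residual degrees of freedom, and the length trend gives no test, so these gave values but no counts of calls. No paired analysis was possible because the 2 groups share only replicate number 1. With 1 IgG library, its own variation is unknown, and counts near 100 (Epb41l5) set the limit of precision.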
